A study of Sus scrofa with 25 samples.

Results

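Of 25 muscle libraries from pigs, 7 held many APOC3 reads for the ALB reads they held, and these 7 were set against the other 18. APOC3 encodes apolipoprotein C-III and ALB encodes serum albumin. A library belonged to the high-ratio set when its APOC3 count divided by its ALB count was above 0.07, whatever the diet of the pig, and to the low-ratio set when it was at or below that value. The pigs were crosses of Polish Large White sows with Landrace boars, and each library came from 1 pig. They ate feed with vitamin D3 at 0 IU/kg (control, 8 pigs), 5000 IU/kg (D5000, 8 pigs) or 10000 IU/kg (D10000, 9 pigs) for 90 days from day 85 of life, with litters divided over the diets. The high-ratio set held 2 control, 2 D5000 and 3 D10000 libraries, and the low-ratio set held 6 of each diet. The sets were therefore not a treatment of the study. No liver sample was analysed here. The labels name neither the muscle, nor the sex, nor the litter of a pig.

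Albumin, most apolipoproteins and most other plasma proteins are made in the hepatocytes of the liver and are not known as products of muscle fibres. Apolipoprotein C-III sits on triglyceride-rich lipoproteins and inhibits lipoprotein lipase, the enzyme that releases fatty acids from them at the capillary wall of muscle and fat. In the pig assembly Sscrofa11.1, APOA4, APOC3 and APOA1 are neighbouring genes.

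The depth of a library, as reads counted in genes, was 6403176 to 15177976 in the high-ratio set and 3310507 to 12203803 in the low-ratio set. Reads assigned to genes made up 56.0% ± 6.53 (SD, n = 7) in the high-ratio set and 53.9% ± 13.1 (SD, n = 18) in the low-ratio set. Genes with at least 1 count numbered 12397 ± 674 (SD, n = 7) in the high-ratio set and 11746 ± 684 (SD, n = 18) in the low-ratio set, with an exact two-sided permutation p of 0.0428 over 480700 splits and 0.257 after adjustment over the 6 library measures compared. The skeletal actin transcript ACTA1 was at 7808 to 225331 CPM (counts scaled to a library size of 1e+06) in the high-ratio set and at 21482 to 315470 CPM in the low-ratio set. D10000 replicate 27 stood apart from the other libraries by its fat cell transcripts, given below, so results are given with and without it.

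The ratio that defined the sets is given as a description. It was 0.261 in D5000 replicate 24, 0.184 in D10000 replicate 27, 0.178 in D5000 replicate 29, 0.167 in D10000 replicate 26, 0.151 in control replicate 28, 0.115 in control replicate 23 and 0.0944 in D10000 replicate 30. In the low-ratio set it ran from 0.00992 in D5000 replicate 6 to 0.04998 in D10000 replicate 7, with a median of 0.0313. The library just inside the threshold was D10000 replicate 30, with 3213 APOC3 reads against 34050 ALB reads, and the one just outside was D10000 replicate 7, with 5153 against 103105. The 95% Clopper-Pearson intervals were 0.0910 to 0.0978 for D10000 replicate 30 and 0.0486 to 0.0514 for D10000 replicate 7, for counting error alone. No library lay between these values.

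**Figure D1:**
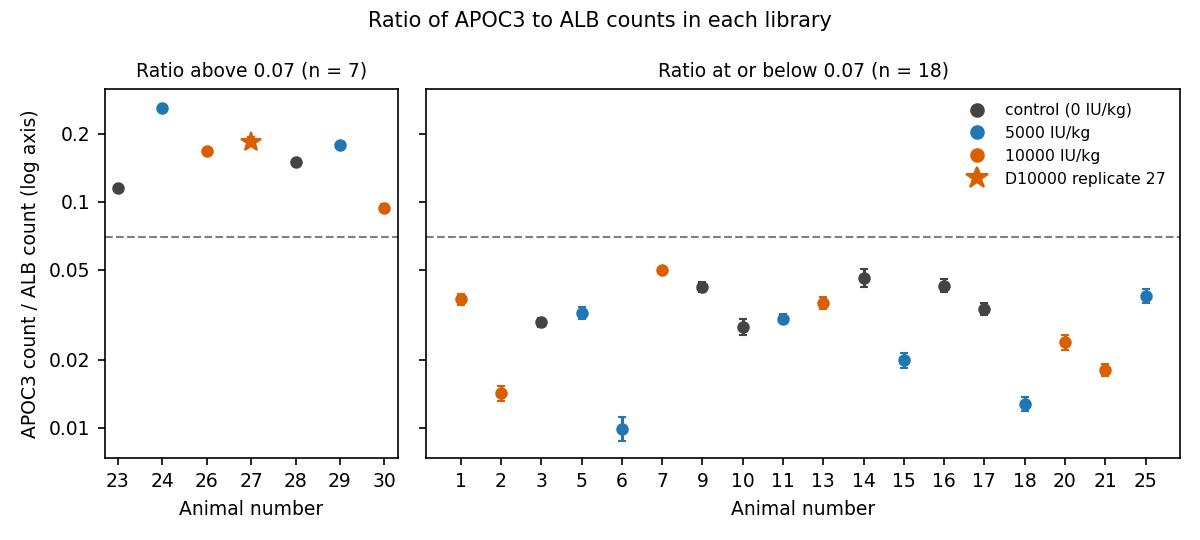
APOC3 reads divided by ALB reads (vertical axis, log scale) in each of the 25 libraries, coloured by diet, with the 7 high-ratio libraries left of the 18 low-ratio ones and the threshold of 0.07 as a dashed line. Bars are 95% Clopper-Pearson intervals and the star is D10000 replicate 27. The 7 sit between 0.0944 and 0.261 and the 18 between 0.00992 and 0.04998, and each diet has libraries on both sides.

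The 7 libraries carried animal numbers 23 to 30 without 25. Of the 8 libraries with a number of 23 and above, 7 were in the high-ratio set, and of the 17 with a lower number 0 were. The exception was D5000 replicate 25, with a ratio of 0.0384, inside the range of the low-ratio set. The labels do not say what the animal number stands for, so a difference between the sets and a difference between low and high numbers cannot be told apart except through this 1 library.

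The levels of APOC3 and ALB, which the rule read, are also given as a description. APOC3 stood at 134 CPM (lowest), 843 CPM (median) and 1733 CPM (highest) in the high-ratio set, against 48.0, 120 and 647 CPM in the low-ratio set. In 5 of the 7 libraries APOC3 was above all 18, and the other two were D10000 replicate 27 at 134 CPM and D10000 replicate 30 at 313 CPM. ALB stood at 727, 5912 and 7337 CPM in the high-ratio set and at 2166, 4654 and 12953 CPM in the low-ratio set, and the sets overlapped. The ALB value of D10000 replicate 27, 727 CPM, was below every low-ratio library, so its APOC3 level was inside the low-ratio range while its ratio was not.

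The apolipoproteins, which carry lipid in plasma, are described first because the rule read one of them. Of the 12 symbols matched in this list, 10 besides APOC3 were tested, and all 10 had a positive log2 fold change of the high-ratio over the low-ratio set, with a median of 0.59 against 0.02 over all 10990 genes. Over all genes 0.4% were called at an adjusted p under 0.05 (edgeR's quasi-likelihood test with diet as a term, Benjamini-Hochberg adjustment) and 51.3% were positive. In this list 1 member, APOE, was called. Leaving out D10000 replicate 27 gave a median of 0.78 with 9 positive and 0 called. The members share a tissue with APOC3, and their values are no independent sign of a difference.

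APOE, a ligand of lipoprotein receptors that macrophages and fat cells also make, stood at 547, 1074 and 1925 CPM in the high-ratio set, against 178, 398 and 1050 CPM in the low-ratio set. All 7 were above the low-ratio median and 4 were above all 18. Its log2 fold change was 1.35 ± 0.31 (SE; edgeR adjusted p = 0.0379) and 1.37 ± 0.32 without D10000 replicate 27 (adjusted p = 0.0552).

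APOA2, a structural protein of high-density lipoprotein, stood at 51.8, 334 and 497 CPM in the high-ratio set, against 46.3, 124 and 346 CPM in the low-ratio set. APOA4, an apolipoprotein that the intestine also makes, stood at 60.2, 203 and 247 CPM, against 17.4, 87.3 and 288 CPM in the low-ratio set. APOA1, the main protein of high-density lipoprotein, stood at 230, 1145 and 1559 CPM, against 239, 561 and 1514 CPM in the low-ratio set. The sets overlapped in all 3, and their log2 fold changes were 1.13 ± 0.35 for APOA2, 0.94 ± 0.33 for APOA4 and 0.78 ± 0.32 for APOA1, none called. APOB, the backbone of very-low-density lipoprotein, stood at 123, 656 and 785 CPM in the high-ratio set and 210, 470 and 1083 CPM in the low-ratio set, with a log2 fold change of 0.06 ± 0.35. The transcripts of lipoprotein proteins thus had fitted differences from near 0 to above 1 in the same libraries.

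**Figure D2:**
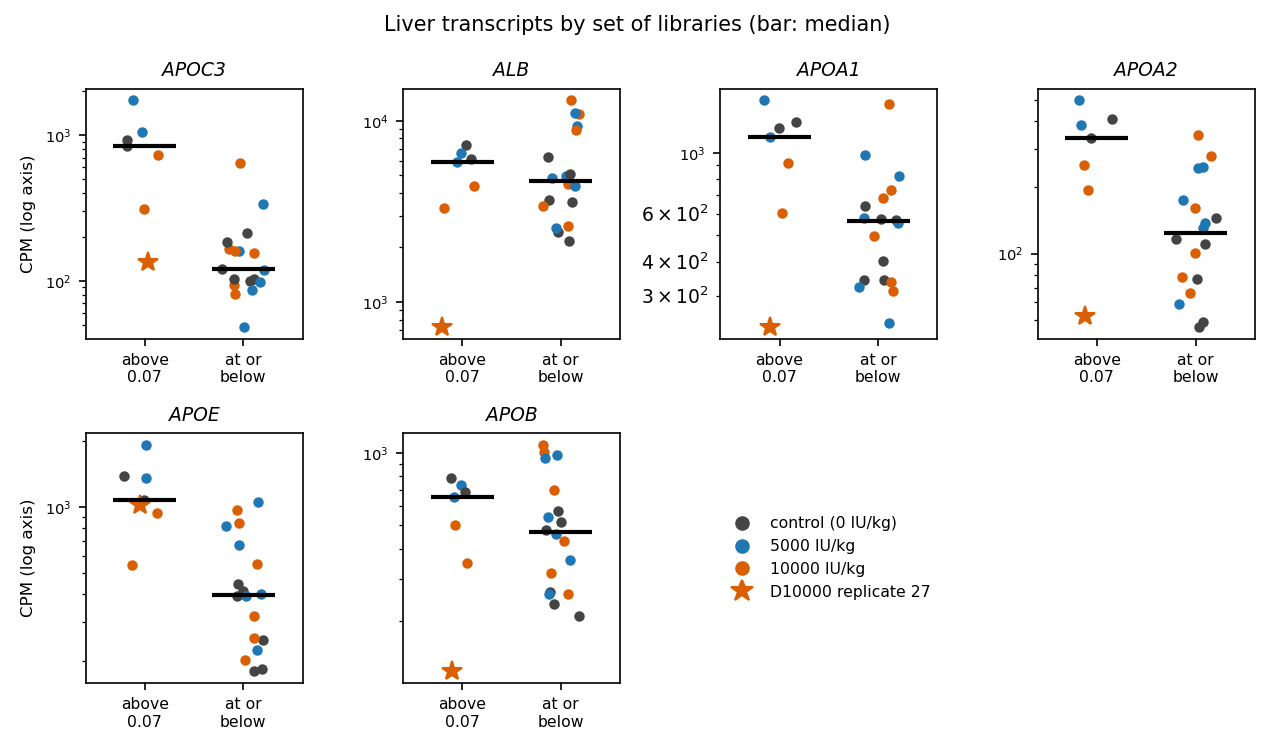
TMM-scaled CPM (log axis) of APOC3, ALB, APOA1, APOA2, APOE and APOB, 1 point per library coloured by diet, high-ratio libraries left and low-ratio libraries right in each panel, with a star for D10000 replicate 27 and a bar at the median. APOC3 and ALB were read by the rule, and ALB covers 727 to 7337 CPM in the 7 and 2166 to 12953 CPM in the 18. The medians of APOE are 1074 CPM in the 7 and 398 CPM in the 18, and the sets overlap.

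The plasma proteins and enzymes of the liver had positive median differences whose size depended on the setting, and none passed by edgeR with all 25 libraries and diet as the only other term. Of 31 tested plasma proteins other than ALB, 23 were positive, the median log2 fold change was 0.22 (0.38 without D10000 replicate 27) and 0 were called. Of 28 tested liver enzymes, 18 were positive, the median was 0.21 (0.37 without D10000 replicate 27) and 0 were called. By animal number the medians were 0.04 for plasma proteins and 0.03 for enzymes. When the percentage of reads assigned to genes was added to the fit they were 0.45 with 5 called and 0.49 with 4 called, where 1.78% of all genes were called. Without D10000 replicate 27 and the 4 libraries under 45% assigned reads, a setting chosen after the data were seen, they were 0.70 with 6 called and 0.70 with 7 called, where 1.61% of all genes were called. The apolipoproteins had 5 called in each of these 2 settings, with medians of 0.80 and 1.10. Both counts of 0 are by edgeR and stand beside the 0.4% called over all genes. At an unadjusted p under 0.05 there were 4 plasma proteins and 6 enzymes, beside 9.68% over all genes. DESeq2, which called 1.21% of all genes it tested, called HAMP and FAH, and limma's voom, which called 0.419%, called HPD. HAMP, which encodes the iron hormone hepcidin, had a log2 fold change of 1.76 ± 0.44 (edgeR adjusted p = 0.0750). It passed without D10000 replicate 27 (1.99 ± 0.43, adjusted p = 0.0291) and within controls alone (2.28 ± 0.31, adjusted p = 0.00569). HPD and FAH are enzymes of tyrosine breakdown. These 3 genes are named after their values were seen.

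The fibrinogen chain FGB stood at 352, 1814 and 2334 CPM in the high-ratio set, against 585, 1404 and 3564 CPM in the low-ratio set. The haem scavenger HPX stood at 526, 2418 and 3756 CPM, against 455, 1226 and 3843 CPM in the low-ratio set. The copper ferroxidase CP stood at 350, 1130 and 1627 CPM, against 500, 1259 and 3338 CPM in the low-ratio set. None of these separated the sets, and their log2 fold changes were -0.06 ± 0.37 for FGB, 0.64 ± 0.38 for HPX and -0.45 ± 0.37 for CP. Among the enzymes, the ethanol-oxidising CYP2E1 (-0.22 ± 0.37) and the tryptophan dioxygenase TDO2 (-0.22 ± 0.36) had negative fold changes within their errors.

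The summed level of all liver and apolipoprotein list genes other than APOC3 and ALB was 9235, 28233 and 34398 CPM in the high-ratio set (lowest, median, highest), against 8358, 17994 and 40327 CPM in the low-ratio set. The 3 lists held 1 symbol at 0 in every library, APOF. The range of the high-ratio set lay inside that of the low-ratio set. In muscle RNA a smaller number of cells of a type and less RNA per cell cannot be told apart. The part that liver-type RNA has in the differences below was not tested. In a setting chosen after the data were seen, the summed counts of the same genes were added to the fit as a covariate. They entered as the log2 of their share in the gene counts of the library, without TMM scaling. With it 2.66% of all genes were called, among them 3 plasma proteins, 3 enzymes and 2 apolipoproteins. The medians of these lists were 0.00054, 0.02 and 0.58 in that order. The covariate was made of the genes of these lists, so medians near 0 follow from its making and show no cause.

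The proportions within the liver transcripts were also compared. Over the 40 most abundant list genes other than APOC3 and ALB, each as a share of the summed liver counts of its library, 18 had a higher and 22 a lower median in the high-ratio set, and the ratios of medians ran from 0.580 to 2.03. APOE made up 3.46%, 4.54% and 11.1% of the liver sum in the high-ratio set, against 1.91%, 2.24% and 2.66% in the low-ratio set. CP made up 3.71%, 4.12% and 5.49% in the high-ratio set, against 5.98%, 7.11% and 8.28% in the low-ratio set. For both genes the sets did not overlap, APOE with all 7 above and CP with all 7 below all 18. The 11.1% for APOE was D10000 replicate 27, and the highest of the other 6 was 5.60%.

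Without D10000 replicate 27, AHSG, GC, CFB and APOA2 also lay above all 18 in the remaining 6. D10000 replicate 27 itself was at 2.74% for AHSG, below all 18. It was at 0.734% for GC, 0.923% for CFB and 0.561% for APOA2, each inside the low-ratio range. In that library APOD made up 8.01%, AGT 4.87% and C3 10.4% of the same sum. The highest values in the other 6 were 0.954%, 0.530% and 6.72% in that order. Larger shares of some genes lower the shares of the rest. The cells that these reads came from were not tested. Shares of the liver sum were computed for the 40 genes alone. By CPM, a different measure, all 7 were above all 18 for 0.0273% of 10990 genes, and the 6 for 0.0455%. AHSG, the mineral-binding fetuin A, made up 7.23% to 9.13% in these 6 libraries, against 5.21% to 6.80% in the low-ratio set. GC, the vitamin D-binding protein of plasma, made up 1.56% to 1.97% in these 6, against 0.605% to 1.38% in the low-ratio set. The complement factor CFB, which drives the alternative pathway, made up 1.55% to 1.85% in these 6, against 0.595% to 1.27% in the low-ratio set. CYP2E1 and TDO2 had 6 of the 7 libraries below all 18. These shares were compared with no test, since the rule read a ratio of the same kind in the same libraries.

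**Figure D3:**
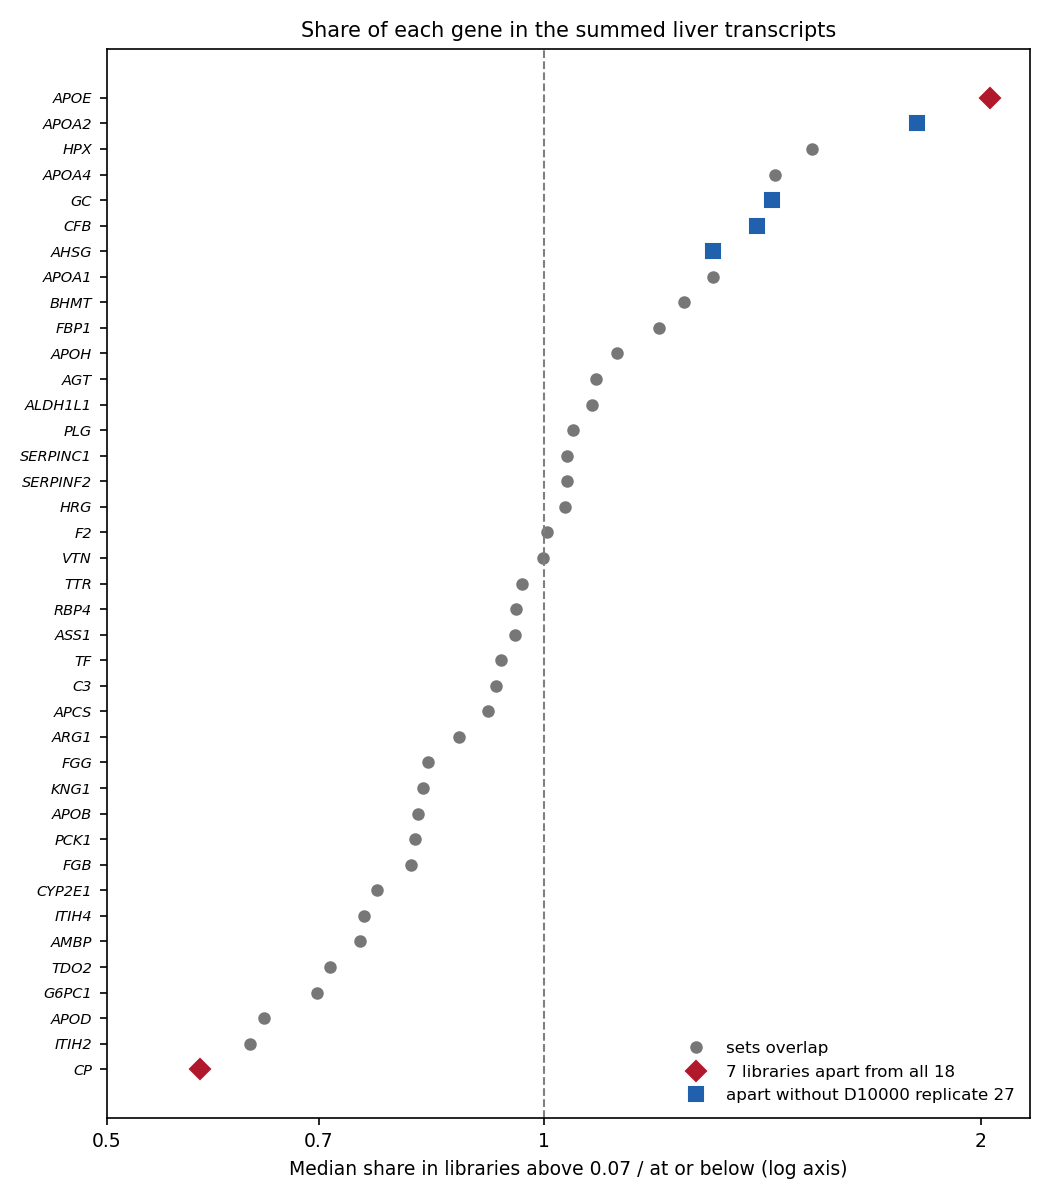
For the most abundant liver and apolipoprotein transcripts, the median share in the summed liver counts of the high-ratio set divided by that of the low-ratio set (horizontal log axis, dashed line at 1). The ratios run from 0.580 for CP to 2.03 for APOE, red diamonds mark these 2 genes whose sets do not overlap, and blue squares mark the 4 further genes whose sets do not overlap without D10000 replicate 27.

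Across all genes, the high-ratio set was compared with the low-ratio set in 1 fit over 25 libraries with diet as a term. Of 10990 genes other than APOC3 and ALB, 44 were called at an adjusted p under 0.05 (edgeR's quasi-likelihood test), which is 0.4%. Of these, 42 were higher (0.382%) and 2 were lower (0.0182%) in the high-ratio set. The log2 fold changes of the 42 ran from 1.04 to 3.18 with a median of 1.52. An unadjusted p under 0.05 was found for 1064 genes (9.68%). The sets were formed from 2 transcripts of the same libraries, so that any gene that follows those transcripts separates with them, and the p-values are not independent of the choice of sets. They measure the spread between these libraries, 1 per pig, whose litters are not known here.

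Without D10000 replicate 27 there were 26 calls (0.237%), all higher, of which 19 were also called with it, and an unadjusted p under 0.05 was found for 626 genes (5.7%). Of the 7 called only without it, CLEC4G, CPT1B, CIDEB, HAMP and CCL4 have a symbol. The count of calls also moved by over 1.5 times without other libraries, to 13 (0.118%) without control replicate 28, 15 (0.136%) without D5000 replicate 24, 28 (0.255%) without either D10000 replicate 1 or D10000 replicate 20, and 67 (0.61%) without D10000 replicate 30. With the libraries split by animal number, 23 and above against the others, 4 genes were called (0.0364%), ENSSSCG00000037009, CBS, FCN2 and CCL19. That split differs from the one by ratio in 1 library, D5000 replicate 25. By animal number all 42 genes called higher stayed positive with an unadjusted edgeR p under 0.05, beside 9.41% of all genes. D5000 replicate 25 was below the lowest of the 7 in 35 of the 42, and above the median of the other 17 low-ratio libraries in 14. The 42 were called with this library in the low-ratio set, so these counts are no independent sign.

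The smallest p of the comparison belonged to ENSSSCG00000037009, an identifier without a symbol in the tables used here and named after its values were seen. It stood at 28.2, 65.5 and 102 CPM in the high-ratio set, against 1.52, 5.41 and 22.1 CPM in the low-ratio set. Every high-ratio library was above every low-ratio one, and the log2 fold change was 3.18 ± 0.38 (SE; edgeR adjusted p = 1.33e-05). Over all genes, 3 had all 7 libraries above all 18 (0.0273%), and these were this gene, CCL19 and ENSSSCG00000007435. None had all 7 below all 18.

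CBS encodes cystathionine beta-synthase, which starts the conversion of homocysteine into cysteine and is abundant in liver. It stood at 37.3, 87.1 and 149 CPM in the high-ratio set, against 6.31, 13.5 and 64.7 CPM in the low-ratio set. A single low-ratio library was above the lowest of the 7, and 5 of the 7 were above all 18. The log2 fold change was 2.38 ± 0.32 (edgeR adjusted p = 8.41e-05) and 2.49 ± 0.33 without D10000 replicate 27. Within single diets it was 2.90 ± 0.34 in controls, 2.87 ± 0.44 in D5000 and 1.46 ± 0.62 in D10000. CBS was among the 3 genes (0.0273%) called within the controls alone and the 2 genes (0.0182%) called within D5000 alone, and no gene passed within D10000 alone, where 906 genes (8.24%) had an unadjusted p under 0.05.

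Other called genes of amino acid and one-carbon metabolism were AMT, a subunit of the glycine cleavage system, INMT, which methylates indoles, and PCBD1, which recycles the cofactor of aromatic amino acid hydroxylases. AMT stood at 7.60, 24.8 and 29.3 CPM in the high-ratio set, against 3.02, 6.87 and 15.0 CPM in the low-ratio set, and 5 of the 7 were above all 18. The log2 fold changes were 1.53 ± 0.30 for AMT, 1.56 ± 0.31 for INMT and 1.28 ± 0.26 for PCBD1 (each with an edgeR adjusted p of 0.0130). Without D10000 replicate 27 AMT and INMT passed again and PCBD1 did not, at an adjusted p of 0.0522. Genes are grouped here by what each is known to do, a grouping made after the calls were seen and not tested for enrichment.

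Of the innate defence genes, FCN2 encodes a ficolin, a lectin that in humans is made in the liver and starts the lectin pathway of complement. It stood at 62.0, 108 and 1033 CPM in the high-ratio set, against 7.31, 24.3 and 67.3 CPM in the low-ratio set, and the highest value was D10000 replicate 27. The log2 fold change was 2.96 ± 0.45 (edgeR adjusted p = 0.00100) and 1.85 ± 0.30 without D10000 replicate 27 (adjusted p = 0.00102). Ficolin genes are close relatives of each other, and reads of near-identical stretches may have been left uncounted or split.

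SERPING1, the inhibitor of complement C1, stood at 482, 813 and 1055 CPM in the high-ratio set, against 163, 286 and 614 CPM in the low-ratio set. LBP, which binds bacterial lipopolysaccharide in plasma, stood at 28.2, 177 and 405 CPM, against 23.9, 54.9 and 123 CPM in the low-ratio set. For SERPING1 and LBP 6 of the 7 libraries were above all 18, and the remaining LBP value was D10000 replicate 27. Log2 fold changes were 1.37 ± 0.25 for SERPING1 (edgeR adjusted p = 0.00639) and 1.78 ± 0.33 for LBP (adjusted p = 0.00704), and without D10000 replicate 27 both passed.

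The chemokine CCL19, a ligand of the receptor CCR7 on lymphocytes and dendritic cells, stood at 19.4, 30.4 and 127 CPM in the high-ratio set, against 7.07, 13.0 and 19.3 CPM in the low-ratio set. The lowest of the 7 (19.39 CPM) and the highest of the 18 (19.35 CPM) almost met. The log2 fold change was 1.67 ± 0.28 (edgeR adjusted p = 0.00215) and 1.12 ± 0.23 without D10000 replicate 27 (adjusted p = 0.0160). CCL21, the other ligand of that receptor, was called as well, with 1.88 ± 0.40 (adjusted p = 0.0189), and was not called without D10000 replicate 27 (adjusted p = 0.0869). The general immune cell list held 21 tested genes, of which 16 were positive, with a median log2 fold change of 0.50 (0.35 without D10000 replicate 27). With all 25 libraries and diet as the only other term, 4 had an unadjusted edgeR p under 0.05, beside 9.68% over all genes. In that setting 0 were called by edgeR, DESeq2 or voom. With assigned reads as a covariate edgeR called 1, beside 1.78% of all genes. Without D10000 replicate 27 and the 4 libraries under 45% assigned reads it called 1, beside 1.61%.

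The calls among genes of lipid and sugar metabolism depended on D10000 replicate 27 to different degrees. MLXIPL encodes ChREBP, a transcription factor that turns on glycolytic and lipogenic genes when glucose is high. It stood at 12.9, 26.1 and 175 CPM in the high-ratio set, against 6.50, 12.4 and 24.7 CPM in the low-ratio set. The log2 fold change was 1.68 ± 0.32 (edgeR adjusted p = 0.0109) and 0.97 ± 0.27 without D10000 replicate 27 (adjusted p = 0.168), the library at 175 CPM.

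The ceramide synthase CERS4 stood at 17.4, 24.3 and 40.6 CPM in the high-ratio set, against 3.19, 7.73 and 22.7 CPM in the low-ratio set, and it passed with D10000 replicate 27 (1.48 ± 0.29, edgeR adjusted p = 0.0127) and without it (1.50 ± 0.31, adjusted p = 0.0160). ECHDC2, named for its enoyl-CoA hydratase domain, stood at 60.7, 99.3 and 296 CPM, against 23.3, 38.7 and 76.9 CPM in the low-ratio set, and also passed both ways (1.50 ± 0.26 and 1.10 ± 0.23). The pentose phosphate enzyme TKT, the sphingolipid regulator ORMDL3 and the acetoacetyl-CoA thiolase ACAT2 were called with D10000 replicate 27 and not without it, with adjusted p-values of 0.602, 0.125 and 0.207 in that order.

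KRT8, a keratin of simple epithelia such as hepatocytes and bile ducts, stood at 26.5, 118 and 204 CPM in the high-ratio set, against 14.8, 26.2 and 98.5 CPM in the low-ratio set. TMSB4X, which binds monomeric actin and belongs to a family with near-identical copies in mammalian genomes, stood at 208, 652 and 1360 CPM, against 156, 258 and 370 CPM in the low-ratio set. The lowest of the 7 was D10000 replicate 27 for both. Both passed with it (1.73 ± 0.33 for KRT8 and 1.39 ± 0.26 for TMSB4X) and without it (1.91 ± 0.32 and 1.53 ± 0.24). The potassium-chloride cotransporter SLC12A4 stood at 27.4, 44.7 and 92.3 CPM in the high-ratio set, against 10.8, 15.6 and 39.6 CPM in the low-ratio set, with a log2 fold change of 1.34 ± 0.27, and without D10000 replicate 27 its adjusted p was 0.0739.

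**Figure D4:**
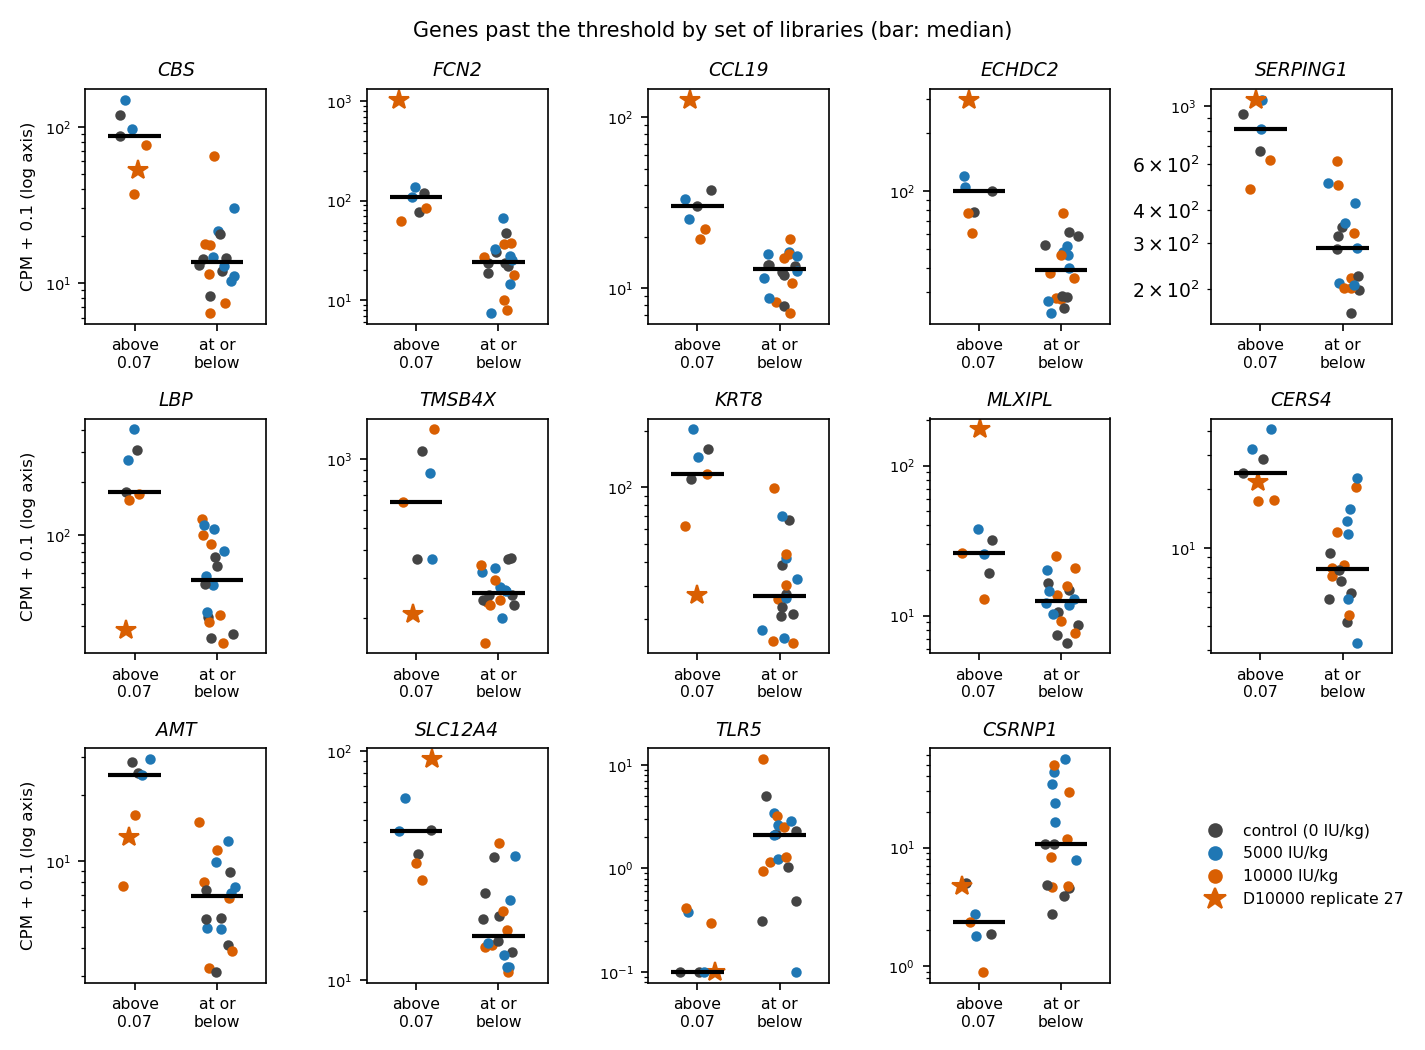
TMM-scaled CPM plus 0.1 (log axis) of the 12 higher genes named by the smallest p and of the 2 lower ones, 1 point per library coloured by diet, high-ratio libraries left and low-ratio libraries right in each panel, with a star for D10000 replicate 27 and a bar at the median. CCL19 (19.39 to 127 CPM in the 7, 7.07 to 19.35 CPM in the 18) shows no overlap, and FCN2 and MLXIPL reach their highest values, 1033 and 175 CPM, in D10000 replicate 27.

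D10000 replicate 27 was the highest of the 7 in 27 of the 42 genes called higher and the lowest in 9. Over all genes tested it was the highest in 29.7% and the lowest in 29.0%. The 42 were called with this library among the 7, so these counts follow in part from the calls and are no independent sign. Without it, 5 of the 27 were called again, as were 14 of the other 15.

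The genes called lower were TLR5, the receptor for bacterial flagellin, and CSRNP1, a nuclear protein that is induced by AXIN1 in human cells. TLR5 had 8 reads in the 7 libraries, in 3 of them, against 292 reads in 17 of the 18. The pooled levels were 0.109 CPM in the high-ratio set and 2.11 CPM in the low-ratio set, a ratio of 0.0518 with a 95% counting interval of 0.0222 to 0.103. That interval treats pooled reads as the units and leaves out the spread between libraries, and 1 low-ratio library held 53 of the 292 reads. CSRNP1 stood at 0.790, 2.24 and 4.90 CPM in the high-ratio set, against 2.67, 10.6 and 56.3 CPM in the low-ratio set, where 6 libraries were below the highest of the 7, with a log2 fold change of -2.35 ± 0.55 (edgeR adjusted p = 0.0423). Without D10000 replicate 27 the adjusted p-values were 0.0985 for TLR5 and 0.0626 for CSRNP1, and both fold changes remained negative.

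Transcripts of other organs were looked for, since APOA4 and APOC3 are also made in the intestine. Of 24 matched symbols of the intestinal epithelium list, 7 were at 0 in every library (CDH17, FABP2, GUCA2B, MUC2, RBP2, REG4 and SI). The 6 tested members had a median log2 fold change of -0.04 with 0 called and 0 at an unadjusted p under 0.05. Over all genes 0.4% were called and 9.68% had such a p by edgeR. The summed level of the list was 67.2, 123 and 180 CPM in the high-ratio set, against 51.3, 112 and 285 CPM in the low-ratio set. Of the kidney list 8 symbols were at 0 in every library and 1 was tested, MIOX (0.46 ± 0.40, not called). Of the pancreas list 5 were at 0 and 2 were tested, CPA1 (1.51 ± 0.76) and CELA2A (-0.06 ± 1.03), neither called.

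The lung and airway list had 9 tested members, of which 1 was positive, with a median log2 fold change of -0.61 (-1.51 without D10000 replicate 27). By edgeR 0 were called and 0 had an unadjusted p under 0.05, beside 0.4% and 9.68% over all genes. Its surfactant gene SFTPC stood at 1.07, 1.66 and 32.3 CPM in the high-ratio set, against 0, 5.08 and 82.8 CPM in the low-ratio set. The summed list was at 6.05, 9.37 and 118 CPM in the high-ratio set and at 5.88, 19.9 and 257 CPM in the low-ratio set. The ranges overlapped nearly throughout.

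Of the high-ratio set, 1 library held far more fat cell transcripts than any other of the 25. Of 21 tested fat cell and lipid synthesis genes, 19 were positive with a median log2 fold change of 1.65, and 11 were positive with a median of 0.01 without D10000 replicate 27. None was called by edgeR in either fit, or by DESeq2 or voom. With all 25 libraries 9 had an unadjusted edgeR p under 0.05, beside 9.68% over all genes. The summed level was 29845 CPM in D10000 replicate 27, 1067 to 1573 CPM in the other 6 libraries of the high-ratio set and 1009 to 2006 CPM in the low-ratio set. ADIPOQ, the hormone adiponectin, was at 961 CPM in D10000 replicate 27, against at most 28.7 CPM in the other 6 and 64.4 CPM in the low-ratio set. The lipogenic FASN, SCD and the lipase LPL had their highest values, 3791, 6487 and 4927 CPM, in D10000 replicate 27. What these fat transcripts contribute to the genes called was not tested beyond leaving the library out.

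Of the connective tissue and vessel lists, the matrix list had 19 tested members, 14 positive, a median of 0.48 (0.21 without D10000 replicate 27) and 1 called, BGN, a proteoglycan that binds collagen. BGN had 1.47 ± 0.35 (edgeR adjusted p = 0.0423) and 0.74 ± 0.25 without D10000 replicate 27 (adjusted p = 0.455). DESeq2 called BGN and TIMP1 of this list, and voom called 0. Over all genes, edgeR called 0.4%, DESeq2 1.21% and voom 0.419%, and 9.68% had an unadjusted edgeR p under 0.05. The endothelium list had 15 tested members, 12 positive, a median of 0.46 (0.19 without D10000 replicate 27) and 1 called, PLVAP, a protein of the diaphragms of fenestrated capillaries. PLVAP stood at 34.97, 63.0 and 179 CPM in the high-ratio set, against 5.79, 18.95 and 84.9 CPM in the low-ratio set, with 1.74 ± 0.36 (adjusted p = 0.0136) and 1.36 ± 0.35 without D10000 replicate 27 (adjusted p = 0.112). The general endothelial marker PECAM1 had 0.29 ± 0.31 and the water channel AQP1 0.56 ± 0.42, neither called. Smooth muscle and pericyte genes had a median of 0.19 (-0.18 without D10000 replicate 27), and blood genes one of -0.01 (-0.35, and 0.03 with the RLE scaling of DESeq2), with 0 called in both lists and 1 smooth muscle and 0 blood genes at an unadjusted p under 0.05.

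The fast-fibre transcripts of muscle had negative fold changes, none past the threshold. All 15 tested fast-twitch contraction genes were negative in the high-ratio set, with a median log2 fold change of -0.85 (-0.68 without D10000 replicate 27, with 2 positive). By edgeR 0 were called and 7 had an unadjusted p under 0.05, beside 0.4% and 9.68% over all genes. DESeq2, which called 1.21% of all genes it tested, called 1, TNNI2, named here for that call. The summed list was at 4158, 41378 and 102707 CPM in the high-ratio set and at 19844, 86003 and 160128 CPM in the low-ratio set. TNNI2, the inhibitory troponin of fast fibres, stood at 185, 772 and 1901 CPM in the high-ratio set, against 539, 2380 and 9662 CPM in the low-ratio set, and had a log2 fold change of -1.39 ± 0.47 (edgeR adjusted p = 0.235). The tropomyosin TPM1 had -0.52 ± 0.47, the light chain MYL1 -0.09 ± 0.52 and the muscle enolase ENO3 -0.71 ± 0.44. Slow-twitch genes had a median of 0.18 with 8 of 9 positive (0.38 with 9 positive without D10000 replicate 27). Their summed level had the lower median in the high-ratio set, at 506, 2868 and 20200 CPM, against 1004, 4838 and 13489 CPM in the low-ratio set. Of the 7 libraries 2 were above the low-ratio median of that sum, and the 20200 CPM was D5000 replicate 24. The 15 genes come from the same libraries, so their shared direction is not 15 separate observations.

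The myogenesis and growth list had 15 of 16 tested members negative with a median of -0.37 (-0.20 without D10000 replicate 27), and CKM, the creatine kinase of muscle, had -0.69 ± 0.46. Glycolysis and glycogen genes had a median of -0.25 with 18 of 25 negative, nuclear genes of oxidative phosphorylation one of 0.03, and mitochondrially encoded genes one of 0.23. The same medians were -0.17, 0.06 and 0.21 without D10000 replicate 27. Immediate-early and heat-shock genes had a median of -0.19 (-0.17 without D10000 replicate 27), cytosolic ribosomal proteins -0.01 (-0.08, and 0.02 with RLE scaling), interferon-stimulated genes -0.05 (-0.12), and protein degradation and atrophy genes -0.03 (-0.02). No member of the lists in this paragraph was called by edgeR with all 25 libraries and diet as the only other term. At an unadjusted p under 0.05, which 9.68% of all genes reached, were 4 of 25 glycolysis and glycogen genes, 5 of 27 immediate-early and heat-shock genes, 3 of 45 oxidative phosphorylation genes, 2 of 34 ribosomal protein genes, 2 of 35 protein degradation genes, 2 of 16 myogenesis genes, and 0 interferon-stimulated and 0 mitochondrially encoded genes. DESeq2 called MSTN, HMOX1 and IER5 among them, and voom called MSTN and HMOX1, genes named after their values were seen.

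Of 17 circadian clock genes 14 were negative, with a median of -0.33 (-0.34 without D10000 replicate 27). By edgeR 2 had an unadjusted p under 0.05 and 0 were called, beside 9.68% and 0.4% over all genes. The summed level was 364, 377 and 552 CPM in the high-ratio set, where 552 CPM was D10000 replicate 26, and 364, 528 and 686 CPM in the low-ratio set. PER1, a repressor of the clock loop, stood at 40.4, 58.3 and 143 CPM in the high-ratio set and at 78.3, 114 and 215 CPM in the low-ratio set (-0.75 ± 0.27, edgeR adjusted p = 0.269). The times at which muscle was taken were not in the labels. Vitamin D metabolism and signalling genes had a median of -0.14 over 16 tested members. It was -0.04 without D10000 replicate 27, and 0.05 without that library and the 4 libraries under 45% assigned reads. With all 25 libraries and diet as the only other term, 4 had an unadjusted edgeR p under 0.05, beside 9.68% over all genes. In that setting 0 were called by edgeR, DESeq2 or voom. With assigned reads as a covariate edgeR called 3, where 1.78% of all genes were called. It called 3 without D10000 replicate 27 and the 4 libraries, beside 1.61%, and 2 with the liver covariate, beside 2.66%. CYP24A1, which breaks down active vitamin D, was at 0 in every library. GC, a member of this list that is also a liver plasma protein, stood at 67.8, 462 and 639 CPM in the high-ratio set and at 93.1, 185 and 512 CPM in the low-ratio set (0.82 ± 0.36, not called).

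**Figure D5:**
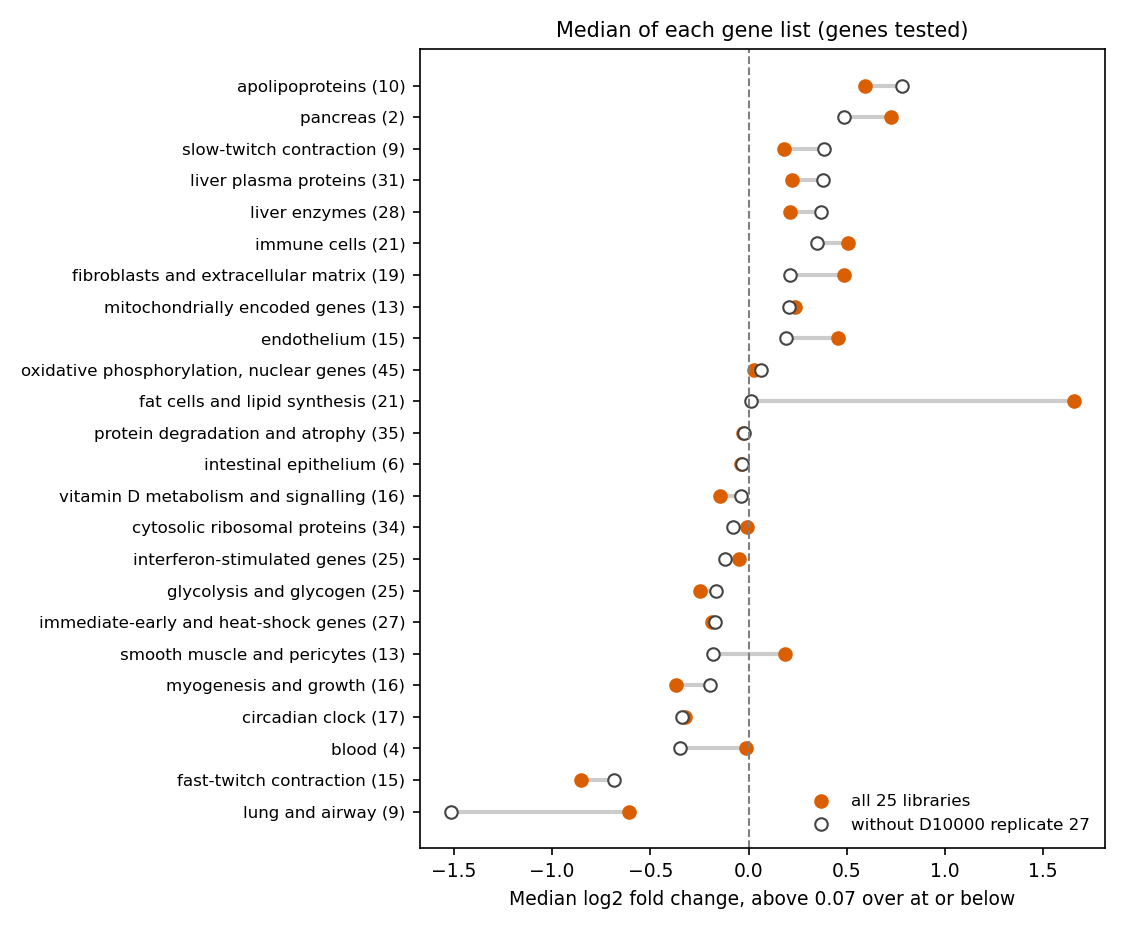
Median log2 fold change of the high-ratio over the low-ratio set (horizontal axis) for each gene list with at least 2 tested genes, whose number stands in brackets, in the fit with all 25 libraries (filled) and in the fit without D10000 replicate 27 (open). The fat cell list is at 1.65 with and 0.01 without that library, the apolipoproteins are at 0.59 and 0.78, and the fast-twitch list is at -0.85 and -0.68.

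The difference between the sets was compared between diets by an interaction of set and diet. By edgeR 0 of 10990 genes were called, with 519 (4.72%) at an unadjusted p under 0.05 and a smallest adjusted p of 0.925. Without D10000 replicate 27, 0 were called and 261 (2.37%) had an unadjusted p under 0.05. With 2 or 3 high-ratio libraries per diet, a difference between diets that did not pass is not shown to be absent.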

How the data were processed

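Muscle RNA of 25 pigs was sequenced with 1 library per pig. The kit was QuantSeq 3' FWD of Lexogen, per the labels' protocols. It reads 3' ends, so a count does not grow with transcript length. The deposited values were raw counts per Ensembl gene, and nothing in them pointed to a normalization by the authors. The submitters' processing notes name FastQC. Not given in the sources used here are the aligner, the counter, the build and the annotation. The 5 summary lines of each file (24.9% to 70.6% of reads assigned to genes, 16.3% to 38.1% outside genes, 12.5% to 38.7% aligned to several places) stayed out of library sizes and tests. Of 25880 pig gene identifiers 25879 were analysed, since the file of 1 library lacked 1, and an Ensembl table gave symbols to 14856. Identifiers sharing a symbol numbered 2.

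Libraries with a ratio of APOC3 to ALB counts above 0.07 were compared with the rest. APOC3 and ALB were described and not tested. The libraries, the gene lists and the tests were chosen with earlier results of these data known. Low genes were removed by filterByExpr (minimum count 10, minimum total 15), which left 10992, and 10990 without APOC3 and ALB. Counts were fitted with glmQLFit and glmQLFTest (robust) of edgeR 4.0.16 in R 4.3.3, with TMM scaling, diet and set as terms, and Benjamini-Hochberg adjustment over all genes tested at a threshold of 0.05. The biological coefficient of variation was 0.659 in common, and the median SE of a log2 fold change was 0.38. CPM values are counts scaled to a TMM-scaled library size of 1e+06 reads. Library measures were compared with exact two-sided permutation tests in Python 3.11.15 with scipy 1.17.1. Ratio intervals are Clopper-Pearson at 95%. The labels name no molecular identifiers, so intervals cover counting error only.

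The genes named were APOC3 and ALB, the 12 higher and up to 12 lower called genes with a symbol and the smallest p outside the liver lists, the 3 most abundant tested members of each of the 25 lists (8 of the liver, apolipoprotein and intestine lists), and ACTA1, CKM, ADIPOQ, SFTPC, APOA1, APOA2, APOA4, APOB and FABP2. Others were named after their values were seen. FABP1, MYH1, MYH2, MYH4 and MYH7 matched no identifier.

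The fit was tested on simulated counts of 10992 genes with the same sets. At a log2 fold of 1 it called 21.5% of 107 changed genes, at a log2 fold of 2 it called 65.6% of 93, and of 10792 unchanged genes it called 1. Each gene was drawn separately, with no variation shared between genes, no fat-rich library and no sets formed from the counts. These rates therefore do not carry over to the real comparison. Alternatives were RLE scaling, no filter, no diet term, DESeq2 1.42.0, voom of limma 3.58.1, a split by animal number, the log2 ratio as a continuous term, assigned reads (percent) as a covariate, scaling without liver genes, each diet alone, and each library left out in turn. Chosen after the data were seen were the summed liver transcripts as a covariate, leaving out D10000 replicate 27 together with the 4 libraries under 45% assigned reads, and leaving out D10000 replicate 27 in the test between diets. One gene that the naming rule selects is not reported here.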

Additional observations from a re-analysis of the deposited data

Results flagged for a closer look

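Within the 7 high-ratio libraries, 10 of 57 values examined had 1 library far from the other 6 by Dixon's criterion. The criterion flags about 1 in 20 groups of independent, normally distributed values. The values here were CPM levels and list sums of the same 7 libraries, so that rate does not apply to the 10 of 57. Of the 10, 7 were D10000 replicate 27. It held 1033 CPM of FCN2, against 62.0 to 135 CPM in the other 6, 127 CPM of CCL19, against 19.4 to 37.6 CPM, and 296 CPM of ECHDC2, against 60.7 to 119 CPM. MLXIPL was at 175 CPM in it, against 12.9 to 37.9 CPM in the other 6, and the fat hormone ADIPOQ at 961 CPM, against 2.63 to 28.7 CPM. Its summed fat cell list was at 29845 CPM, against 1067 to 1573 CPM in the other 6, and its summed endothelium list at 1169 CPM, against 306 to 372 CPM. These values lie in the library that also had the lowest ALB level of the 25.

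D5000 replicate 24, which had the highest ratio of APOC3 to ALB, had a summed smooth muscle and pericyte list of 5069 CPM, against 1062 to 2274 CPM in the other 6, and a summed slow-twitch list of 20200 CPM, against 506 to 5855 CPM. The summed circadian clock list was at 552 CPM in D10000 replicate 26, against 364 to 394 CPM in the other 6.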

How the results depend on the processing

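The count of 44 genes called was 43 with RLE scaling, 58 without the filter, 44 with TMM computed without liver genes and 46 by voom. It was 180 without the diet term, 166 with the log2 ratio as a continuous term, 196 with assigned reads (percent) as a covariate and 132 by DESeq2 (103 higher, 29 lower). It was 4 by animal number. With the fewer libraries of a single diet it was 3 within controls, 2 within D5000 and 0 within D10000. In settings chosen after the data were seen, it was 292 with summed liver transcripts as a covariate, and 177 without D10000 replicate 27 and the 4 libraries under 45% assigned reads, of which 35 were among the 44. With each library left out in turn it ran from 13 to 67. The cause of these changes was not tested.

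Of 3952 comparisons over 104 named genes, 3563 stayed on their side of the threshold, 236 of genes not called moved by more than their SE, 22 passed newly, 131 no longer passed and 0 turned direction while called. Of 950 list medians 28 moved by more than the SD of the list's mean level over the low-ratio libraries.

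Differences of library measures changed sign within controls, to -1513172 gene counts, -11.0 percentage points of assigned reads, 6.94 of reads outside genes and 4.10 of reads aligned to several places. With each library left out, the last ran from -1.30 to 0.293 points. The share of the 10 most abundant genes differed by 1.60 points by animal number and 3.65 within D10000, and by -2.35 to 1.66 with each library left out. None of the 6 measures passed after adjustment.

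No paired analysis was possible because animal numbers are not shared between diets. With a typical SE of 0.38, a gene not called is not shown to be equal between the sets. The sets are confounded with animal number except for D5000 replicate 25, the liver source of the transcripts was not sampled, and p-values are not independent of sets formed from the same libraries.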
